A study of Mus musculus with 4 samples.

Results

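Cells take up amino acids, sugars and monocarboxylates through membrane proteins of the solute carrier (SLC) families, and the genes described here are those of 10 such families: Slc1, Slc2, Slc3, Slc5, Slc6, Slc7, Slc16, Slc36, Slc38 and Slc43. Members were all genes whose name on the array is one of these family names followed by the letter a and a number. There were 97 such genes with 137 probes among 29924 gene names. Of these, 83 were tested, because their probe was well above background in all 4 control or all 4 treated channels, while 14 were not.

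The families differ in how they move their substrates. Slc1 proteins carry glutamate or exchange neutral amino acids, Slc2 proteins (GLUT) let sugars pass down their gradient, and Slc5 proteins couple sugars and other solutes to sodium. The Slc6 family holds the transporters of neurotransmitters, osmolytes and some neutral amino acids. Slc7 light chains work only when paired with a heavy chain of the Slc3 family, and Slc16 proteins (MCT) carry lactate, pyruvate and related acids. Slc36 proteins couple amino acids to protons, and some Slc43 proteins let large neutral amino acids pass. The Slc38 proteins (SNAT) take up glutamine and other neutral amino acids with sodium. Within them, SNAT1, SNAT2 and SNAT4 form the classical system A, and SNAT3 and SNAT5 form system N, which also exchanges protons and can run in both directions. Several of these genes are known to respond to amino acid supply.

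The samples were ureters of wild-type NMRI mouse embryos, dissected at E12.5 and kept on transwell membranes for 18 h. Treated explants received 10 µM IWP-2, a small molecule that inhibits Porcupine, the enzyme that adds the lipid without which WNT ligands are not secreted, and control explants received the solvent DMSO. The medium of both groups held a stable glutamine dipeptide, non-essential amino acids and pyruvate and, per the study's methods for the arrays, no serum. On each of 4 two-colour Agilent arrays, treated and control RNA were hybridised together, with the treated RNA in the red channel on arrays 1 and 3 and in the green channel on arrays 2 and 4. Each pool combined many ureters, the sex of the embryos was not determined, and IWP-2 acts on all cells of the explant, so that epithelium and mesenchyme were treated alike. The labels number the 4 arrays as replicates. The study's methods give n = 4 for these E12.5 explants, while a figure legend speaks of 2 pools each, untreated or treated. The sources used here thus do not settle whether each array had pools of its own or whether arrays of opposite dye order share their pools. The SD over 4 arrays therefore measures the spread between these arrays, dye effect included, part of which may be technical. The p-values come from a fit with a term for the dye order and rest on the spread that remains after it. With arrays 1 and 2 averaged and arrays 3 and 4 averaged, as 2 replicates, 30 of the genes described here were higher and 16 lower, and Slc38a5 had an adjusted p of 2.89e-05 (limma). The arrays measured RNA, not protein, surface abundance or transport.

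Raw median intensities of the gene spots were between 368 and 711 per channel over a local background of 28 to 77, and no spot was saturated. Over all genes, pairs of arrays had log2 ratios that correlated with r of 0.62 to 0.83, a description over genes that are not replicates. The median change was above 0 in all 7 lists of markers for cell types that the explant could hold. All 9 epithelial markers passed the test as higher, with a median of 0.34, and their summed intensity was 185598 to 200664 in the controls and 211139 to 263309 in the treated channels. Of 7 mesenchymal markers, 2 were higher and 1 was lower, and their sum was 368566 to 398284 against 382263 to 425481. Higher were also 5 of 9 erythroid, 5 of 7 endothelial and 4 of 6 macrophage markers, with medians of 0.19, 0.15 and 0.26. Their sums were 311694 to 469105 against 438395 to 494399, 59003 to 68939 against 67165 to 79431, and 12953 to 16127 against 15930 to 18514. The erythroid sum followed the dye order. It went from 311694 to 441460 and from 336196 to 494399 on arrays 1 and 3. On arrays 2 and 4 it went from 469105 to 475207 and from 429017 to 438395. Beside these counts of markers, 18.1% of all genes were higher and 15.0% were lower. Of 6 nephron progenitor markers 5 were higher and 1 was lower, and of 7 neural crest and neuronal markers 2 were higher, with sums of 46202 to 50525 against 51435 to 58794 and 42400 to 57630 against 43724 to 65344. All tested markers were above background, none was at 0, and their part in the changes of the transporter genes was not tested. In whole explants, fewer cells of a type and less RNA per cell cannot be told apart.

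The oligonucleotides that read out the genes with the largest changes are shown here with a pair of paralogues, since every value below rests on them. The last 30 of the 60 bases of each probe are given 5′ to 3′, and capitals mark the letters AATAAA, the most common signal for the end of a messenger RNA. The Slc38a5 probe lies at chrX:7857241-7857300 on the plus strand (mm9). The Slc1a3 probe lies at chr15:8584236-8584295 on the minus strand, the Slc16a6 probe at chr11:109314056-109314115 on the minus strand, the Slc2a9 probe at chr5:38740566-38740625 on the minus strand and the Slc43a2 probe at chr11:75387219-75387278 on the plus strand.
Slc38a5: gctaaaagggaagAATAAAgatgctgaatg
Slc38a3: ccacagtctaaacccaagggctcatccctg
Slc38a8: gctacaatAATAAAatgagcctcgttgtgc
Slc1a3: ccatttcttacagaaacagattcacaaggg
Slc16a6: tcacagaaattaattggccattccaaaacg
Slc2a9: ttgaaattgtagtgaagccacactaagggc
Slc43a2: tatgaagcAATAAAtccatttccctgttgg
No probe of another gene shared 20 or more bases in a row with the Slc38a5 probe, and the longest run that it shared with the probe of any of its 10 paralogues was 8 bases, with Slc38a7.

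Of the 83 transporter genes tested, 43 passed the test (limma, adjusted p under 0.05), which is 51.8% of them beside 33.1% of all 22455 genes. Higher with IWP-2 were 28 of them (33.7%, beside 18.1% of all genes), and lower were 15 (18.1%, beside 15.0%). Without array 3 these counts were 18 and 11, and with the coarser series table of fold changes they were 12 and 7. Most changes were small. The median size of the change, up or down, was 0.17 on the log2 scale over the tested transporter genes and 0.095 over all genes, while the signed medians were 0.05 and 0.00. For a transporter gene, the 4 arrays differed by a median SD of 0.12. Only 8 of the 43 genes changed by at least 0.5, which is 9.64% of the transporter genes and 4.13% of all genes tested. Of these 8, 6 were higher and 2 were lower, beside 1.60% and 2.53% of all genes. Over the 15 alternative settings 7 to 11 genes were past the test with such a change. The 11 came with the scanner software's processed signals, which added the dim genes Slc6a4 (-0.86), Slc38a8 (0.73) and Slc5a12 (0.70). Past 2-fold were 3 genes, Slc38a5 and Slc16a6 upwards and Slc1a3 downwards. Slc2a9, at -0.995, lay just short of it and was past it under 5 of the alternatives, among them a normexp offset of 16 (-1.08) and processed signals (-1.18), while Slc16a6 was at 0.98 with the mean of its probes. The other 35 genes past the test changed by 0.14 to 0.48. The same direction was seen on 4 of 4 arrays for 41 of the 43 genes. The exceptions were the taurine transporter gene Slc6a6 and the cationic amino acid transporter gene Slc7a3, each of which had 1 array in the other direction. Since the test picked these genes on the same arrays, such agreement is a description. In 25 genes (30.1%, beside 22.5% of all genes) the control and treated intensities did not overlap.

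**Figure D1:**
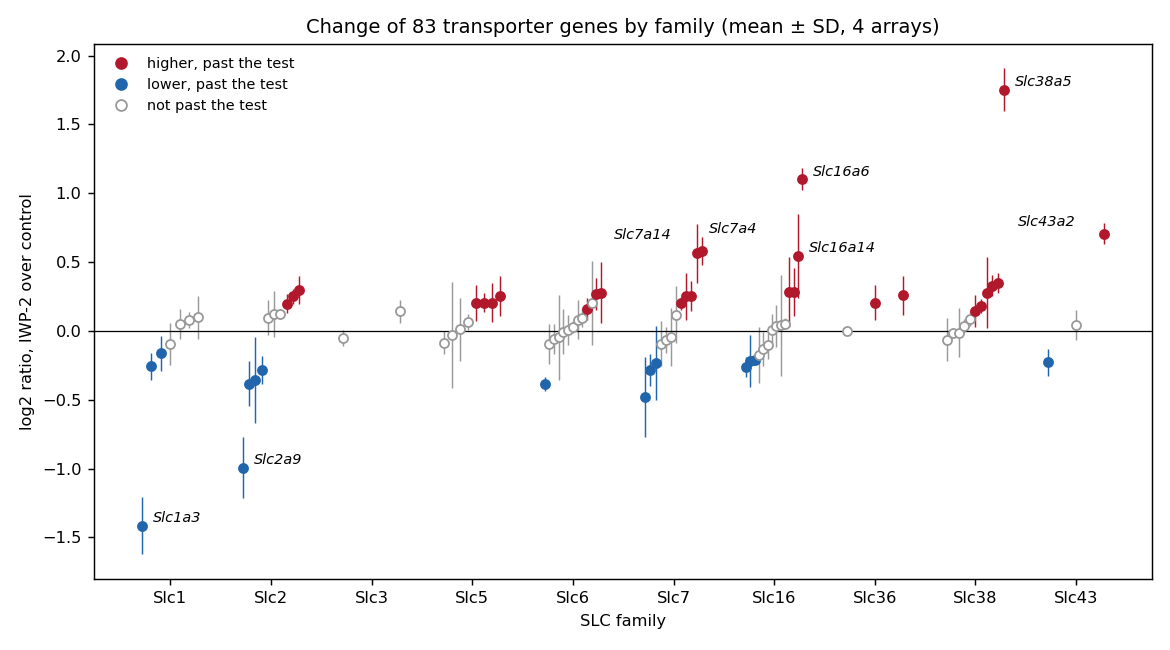
The log2 ratio of IWP-2 over control (vertical axis, mean of 4 arrays with the SD as bars) is plotted for each of the 83 tested genes, sorted within its SLC family (horizontal axis). Red and blue points passed the test as higher and lower and open points did not. Slc38a5 at 1.75 and Slc1a3 at -1.42 lie farthest from 0, and the Slc38, Slc5 and Slc36 families hold no gene that passed the test as lower.

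By family, the genes past the test were all higher in Slc38 (6 of 11 tested), Slc5 (4 of 8) and Slc36 (2 of 3) and all lower in Slc1 (3 of 7). Both directions occurred in Slc2 (3 higher and 4 lower of 10), Slc6 (3 and 1 of 13), Slc7 (5 and 3 of 12), Slc16 (4 and 3 of 14) and Slc43 (1 and 1 of 3). Neither of the 2 Slc3 genes passed the test. Of all genes, 18.1% were higher and 15.0% were lower. With few genes in a family, these counts are descriptions.

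Slc38a5, which encodes the system N transporter SNAT5, had the largest change of all members, and its rise was known from earlier work on these data, so that its values are a description. Its intensity in the control channels of arrays 1 to 4 was 680, 563, 694 and 641. In the treated channels of the same arrays it was 2631, 1878, 2329 and 1913. The lowest treated value was thus far above the highest control value on every array, whichever dye the treated RNA carried. The log2 ratios were 1.95, 1.74, 1.75 and 1.58, a mean of 1.75 ± 0.15 (SD, n = 4 arrays), or 3.37-fold, with an adjusted p of 1.39e-05 (limma).

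None of the 10 paralogues changed nearly as much. SNAT8 (Slc38a8) was next, with 0.35 ± 0.07 and an adjusted p of 0.00242 (limma), followed by SNAT6 (Slc38a6) with 0.33 ± 0.08 and an adjusted p of 0.00272. Slc38a8 is dim, with mean intensities of 119 and 151, its control and treated values overlapped, and its change was 0.73 with processed signals. In Slc38a6 the controls lay between 1729 and 1950 and the treated channels between 2188 and 2445, without overlap.

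Slc38a4, the gene of the system A transporter SNAT4, rose by 0.28 ± 0.26 (adjusted p = 0.00427, limma with a dye term). Its size followed the dye order, with log2 ratios of 0.09 and 0.02 on arrays 1 and 3 and of 0.56 and 0.44 on arrays 2 and 4. Without a dye term the adjusted p was 0.0689. The lysosomal arginine sensor gene Slc38a9 was higher by 0.18 ± 0.05 (adjusted p = 0.0181), with 2 further probes at 0.20 and 0.12. Without array 1, 3 or 4 its adjusted p was 0.0716, 0.0528 or 0.0826. Slc38a11 was higher by 0.14 ± 0.12 (adjusted p = 0.0343), a call that was lost without any 1 of the arrays, with adjusted p between 0.0639 and 0.146. It is dim, with mean intensities of 148 and 163 that overlapped between the groups, and its further probe was at 0.06 ± 0.15. With the mean of its probes the adjusted p was 0.102, and without a dye term it was 0.108 (limma).

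The other 5 Slc38 genes did not pass the test. The system A genes Slc38a1 and Slc38a2 were at 0.09 ± 0.05 and -0.01 ± 0.18, and 2 further probes of Slc38a1 were at -0.09 and -0.08. The gene of the lysosomal glutamine transporter SNAT7, Slc38a7, was at 0.03 ± 0.05, and Slc38a10 was at -0.02 ± 0.03. Slc38a3, which encodes SNAT3, the other system N transporter, was at -0.06 ± 0.16 (adjusted p = 0.316, limma). Its intensities were 306, 343, 318 and 325 in the controls and 301, 302, 351 and 285 in the treated channels, which overlap throughout.

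**Figure D2:**
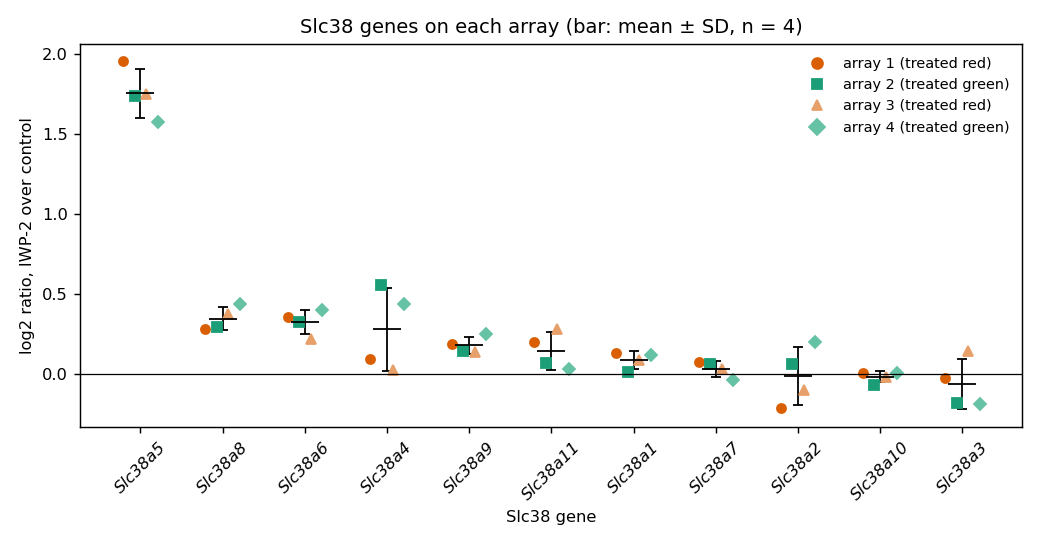
The log2 ratio of IWP-2 over control (vertical axis) is plotted for the 11 Slc38 genes (horizontal axis), with 1 symbol per array, the mean as a bar and the SD as whiskers. All 4 values of Slc38a5 lie at 1.58 or above, while the paralogues lie between -0.21 and 0.56, and in Slc38a4 and Slc38a2 the green symbols lie above the orange ones.

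The difference between Slc38a5 and the median of its paralogues was 1.84, 1.67, 1.63 and 1.42 log2 units on arrays 1 to 4, a mean of 1.64 ± 0.17. Against single paralogues the mean difference ran from 1.41 (Slc38a8) to 1.82 (Slc38a3), and it was above 0 on 4 of 4 arrays for all 10 pairs. An exact two-sided sign-flip permutation test over the 4 arrays gave p = 0.125 for each, also after Benjamini-Hochberg adjustment over the 10 pairs, which is the smallest p that 4 arrays allow. The differences compare changes and not levels, since the intensities of different probes cannot be set against each other.

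On the X chromosome, 11 other tested genes have their probe within 200 kb of that of Slc38a5. Their changes ran from -0.20 (Gm6787) to 0.28 (Ebp). Porcn, which encodes Porcupine, the target of IWP-2, lies 86264 bases away and was at 0.01 ± 0.10 (adjusted p = 0.851, limma).

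The acidic amino acid transporters held the largest fall. Slc1a3, which encodes the glutamate transporter GLAST, had control intensities of 9700, 7929, 9618 and 10223 on arrays 1 to 4. The treated channels were at 4228, 3257, 3088 and 3510. All treated values lay below all control values, by log2 ratios of -1.20, -1.28, -1.64 and -1.54. The mean was -1.42 ± 0.21, or 2.67-fold lower, with an adjusted p of 0.000117 (limma). Of the other 4 tested glutamate transporter genes, Slc1a1 passed the test at -0.16 ± 0.13 (adjusted p = 0.0291), and Slc1a2, Slc1a6 and Slc1a7 lay between -0.10 and 0.10 and did not. Without array 1, 3 or 4 the adjusted p of Slc1a1 was between 0.0586 and 0.13. In the same family, Slc1a4, which encodes the neutral amino acid exchanger ASCT1, fell by 0.26 on the log2 scale (adjusted p = 0.00985), while Slc1a5, the gene of the glutamine exchanger ASCT2, was at 0.05 ± 0.11 (adjusted p = 0.404).

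Among the neutral amino acid transporters, Slc43a2, the gene of the uniporter LAT4, rose. Its control intensities were 1312, 1376, 1388 and 1339, and its treated intensities were 2265, 2259, 2107 and 2205, so that the groups were far apart compared with the spread within each. The log2 ratios of 0.79, 0.72, 0.60 and 0.72 gave 0.71 ± 0.08 (adjusted p = 0.000195, limma). Its relatives did otherwise: Slc43a1, the gene of LAT3, was at 0.04 ± 0.11 (adjusted p = 0.48), and Slc43a3, which encodes a nucleobase transporter, was lower at -0.23 ± 0.10 (adjusted p = 0.0132, or 0.0573 without array 3). The difference Slc43a2 minus Slc43a1 was 0.66 ± 0.16 and had the same sign on 4 of 4 arrays (exact sign-flip permutation p = 0.125). It belongs to 6 pairs of related genes that were chosen after the values were seen.

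Among the genes of the heteromeric transporters, the heavy chain genes did not pass the test: Slc3a2, which encodes 4F2hc (CD98), was at -0.05 ± 0.06 (adjusted p = 0.362, limma) and Slc3a1, which encodes rBAT, was at 0.14 ± 0.08 (adjusted p = 0.0594). Of the 7 light chain genes tested, 3 were higher and 2 were lower, beside 18.1% and 15.0% of all genes. Higher were Slc7a7, a subunit of system y+L (0.25 ± 0.11), Slc7a8, which encodes LAT2 (0.25 ± 0.17), and Slc7a11, which encodes the cystine and glutamate exchanger xCT (0.20 ± 0.05). Without array 2 or array 3 the adjusted p of Slc7a11 was 0.0542 or 0.0511. These 3 and Slc7a6 are named here after their values were seen.

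Slc7a5, which encodes the large neutral amino acid exchanger LAT1, was lower, and so was Slc7a6, another y+L subunit (-0.28 ± 0.12). Slc7a5 had control intensities of 2217, 3188, 3200 and 2680 and treated intensities of 2109, 1927, 2056 and 1916. Array 1 showed hardly any difference, at -0.07, whereas arrays 2 to 4 were at -0.73, -0.64 and -0.48, a mean of -0.48 ± 0.29 (adjusted p = 0.0106, limma). A dimmer probe of the same gene was at -0.04 ± 0.10, so that the fall was seen by 1 of its 2 probes. With the mean of both probes the change was -0.26 and still past the test.

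In differences formed within each array, LAT2 minus LAT1 (Slc7a8 minus Slc7a5) was 0.73 ± 0.21, and Slc7a7 minus Slc7a6 was 0.54 ± 0.19. Both were above 0 on 4 of 4 arrays. They belong to the same 6 pairs chosen after the values were seen. The exact sign-flip permutation p was 0.125 for each of the 6, before and after adjustment over them. The rise of Slc7a8 was not past the test without array 1 or array 4 (adjusted p of 0.094 and 0.0794).

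The cationic amino acid branch of Slc7 held a pair of larger rises. Slc7a4, which encodes a protein related to the cationic amino acid transporters (CAT), was at 1140, 1186, 1197 and 1096 in the controls and at 1667, 1733, 1984 and 1549 in the treated channels, without overlap. Its change was 0.58 ± 0.10 (adjusted p = 0.000408, limma). Slc7a14, which encodes a lysosomal CAT-like protein, was at 1166, 1085, 1161 and 1600 in the controls and at 2073, 1678, 1493 and 2151 in the treated channels. Here the control of array 4 lay above the treated value of array 3, although the ratio was above 0 on every array (0.83, 0.63, 0.36 and 0.43), and the change was 0.56 ± 0.21 (adjusted p = 0.00349). Slc7a1, the gene of the widely expressed transporter CAT1, was at -0.05 ± 0.21 (adjusted p = 0.584), and Slc7a2 and Slc7a3 were at -0.09 and -0.23. Of these, Slc7a3 passed the test, but not without array 2 or 3 (adjusted p of 0.0505 and 0.0639). Its size followed the dye order, at 0.06 and -0.09 on arrays 1 and 3 and -0.54 and -0.36 on arrays 2 and 4. Without a dye term the adjusted p of Slc7a3 was 0.12 (limma).

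In the Slc16 family, Slc16a6, which encodes MCT7, rose on all arrays. Its control intensities were 2562, 2860, 2788 and 2601 and its treated intensities 5134, 6131, 6397 and 5579. Each treated value lay well above each control value. The log2 ratios of 1.00, 1.10, 1.20 and 1.10 gave 1.10 ± 0.08 (adjusted p = 3.87e-05, limma), and its further probe gave 0.85 ± 0.12. Slc16a14, the gene of MCT14, was higher by 0.54 ± 0.31 (adjusted p = 0.00643). The size of that mean came from array 2, at 1.00, whereas the other arrays were at 0.36, 0.42 and 0.40, and its further probe was at 0.44 ± 0.14.

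The Slc16 genes of lactate and pyruvate transport did not move together. Slc16a7, the gene of the pyruvate and lactate transporter MCT2, was higher by 0.28 ± 0.17 (adjusted p = 0.0152, limma). It has 5 further probes above background, of which 4 were higher, by 0.13 to 0.39, and 1 was at -0.02 ± 0.10. Slc16a3, the gene of the lactate exporter MCT4, fell by 0.26 on the log2 scale (adjusted p = 0.00516), and its further probe was at -0.28. Slc16a1, the gene of MCT1, was at 0.05 ± 0.04 (adjusted p = 0.347). Slc16a3 and Slc16a1 are named after their values were seen. The remaining Slc16 genes past the test, Slc16a12 upwards and Slc16a5 and Slc16a11 downwards, changed by less than 0.3, and Slc16a12 was not past the test without array 1 or 3 (adjusted p of 0.0527 and 0.0572). Slc16a5 was not past the test without array 1, 3 or 4 (adjusted p of 0.0935, 0.122 and 0.138). Its change was -0.22, or -0.13 without array 4, and its further probe was at -0.09.

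**Figure D3:**
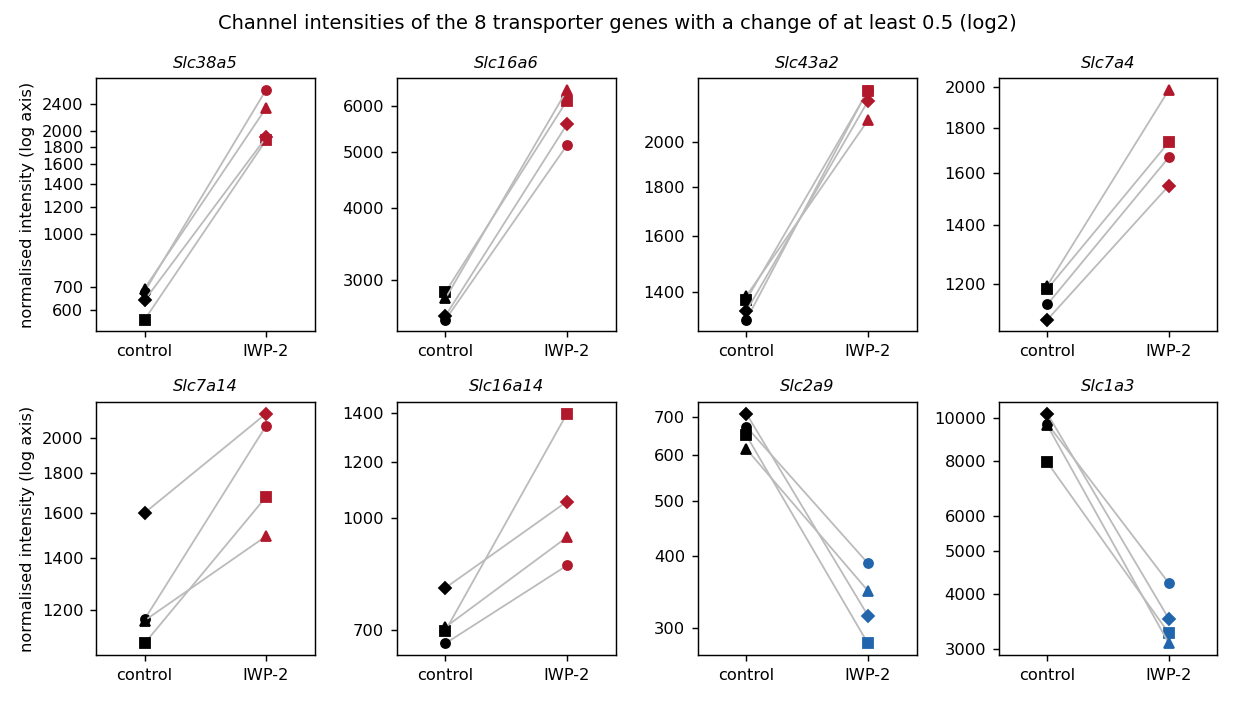
Normalised channel intensity (vertical log axis, with its own range in each panel) is plotted for the control and the IWP-2 channel of each array, joined by a line per array (circle, square, triangle and diamond for arrays 1 to 4), for the 8 genes with a change of at least 0.5. Groups are apart in all panels but that of Slc7a14, where the control of array 4 at 1600 exceeds the treated value of array 3 at 1493.

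Among the facilitative sugar transporters, Slc2a9 was 1.99-fold lower. It encodes GLUT9, which carries urate. The control intensities were 672, 649, 615 and 709 and the treated intensities were 389, 282, 348 and 315. No treated value reached a control value. The log2 ratios were -0.79, -1.20, -0.82 and -1.17, with the arrays of the same dye order next to each other, and the mean was -0.995 ± 0.22 (adjusted p = 2.86e-05, limma). Slc2a10, Slc2a12 and Slc2a5 were lower by less, at -0.38 ± 0.16, -0.36 ± 0.31 and -0.29 ± 0.10. The size for Slc2a12 followed the dye order, with -0.50 and -0.73 on arrays 1 and 3 and -0.09 and -0.11 on arrays 2 and 4. Its control and treated intensities overlapped. Higher were Slc2a13, which encodes the myo-inositol transporter HMIT (0.30 ± 0.10), Slc2a8 (0.25 ± 0.06) and Slc2a6 (0.20 ± 0.07), the last not past the test without array 2 or 3 (adjusted p of 0.0569 and 0.0651, limma). A further probe of Slc2a6 was at 0.04 ± 0.10, and the mean of both probes was 0.12 with an adjusted p of 0.0679. The main glucose transporter gene of most embryonic cells, Slc2a1 (GLUT1), was at 0.10 ± 0.13 (adjusted p = 0.201), and Slc2a3 and Slc2a4 were both at 0.12 to 0.13 without passing the test. These GLUT genes other than Slc2a9 are named after their values were seen.

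Of the 8 tested genes of the sodium-coupled Slc5 family, 4 were higher, beside 18.1% of all genes, and they changed by 0.20 to 0.25. The largest was Slc5a12, which encodes a monocarboxylate transporter, at 0.25 ± 0.14 (adjusted p = 0.0227, limma), at mean intensities of only 103 and 122. Without array 2 or array 3 its adjusted p was 0.0706 or 0.092, and with processed signals its change was 0.70. The other 3 were Slc5a2, Slc5a9 and Slc5a6, which encode transporters of glucose, of sugars and of vitamins. Without array 2 or without array 3 only Slc5a2 of the 4 was past the test, and without array 1 its own adjusted p was 0.0635. In the Slc36 family of proton-coupled transporters, Slc36a4 was higher by 0.26 ± 0.14 (adjusted p = 0.0215), with its further probe also at 0.26. The lysosomal transporter gene Slc36a1 was higher by 0.21 ± 0.13 (adjusted p = 0.0135), but its further probe was at -0.02 ± 0.10, and with the mean of both probes the adjusted p was 0.138. Without array 2 or 3 the adjusted p of Slc36a4 was 0.065 or 0.0848, and without array 1 or 4 that of Slc36a1 was 0.058 or 0.0562.

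Of the 13 Slc6 genes tested, 3 were higher and 1 was lower, beside 18.1% and 15.0% of all genes, and 9 did not pass the test. The largest change was that of the serotonin transporter gene Slc6a4, which was dim but steady: 140, 158, 143 and 154 in the controls and 110, 117, 113 and 115 in the treated channels. These do not overlap, and the change was -0.39 ± 0.05 (adjusted p = 0.000879, limma), or -0.86 with processed signals. Genes of taurine (Slc6a6), neutral amino acid (Slc6a15) and creatine transport (Slc6a8) were higher by 0.28, 0.27 and 0.16. Without array 1, 3 or 4 the adjusted p of Slc6a8 was between 0.0686 and 0.175.

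The 14 genes that were not tested include the glucose transporter genes Slc2a2 and Slc5a1, the iodide transporter gene Slc5a5, the glycine transporter gene Slc6a5 and Slc36a3. For 13 of them no probe was well above background in any of the 8 channels. The remaining gene, Slc7a12, came closest, with 1 of 4 treated channels and 0 of 4 controls above background and mean intensities of 79.4 in the controls and 84.7 in the treated channels. Slc5a12 had the lowest control mean of the tested genes, at 103.

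Of the 83 genes, 22 had further probes above background, 28 in all. For genes past the test there were 18 such probes of 13 genes, of which 16 had the sign of the brightest probe. The other 2 were the probes of Slc16a7 and Slc36a1 given above. Of the 8 genes with a change of at least 0.5, Slc16a6 and Slc16a14 had a further probe above background, and the values of Slc38a5, Slc1a3, Slc2a9, Slc43a2, Slc7a4 and Slc7a14 rest on 1 probe each.

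**Figure D4:**
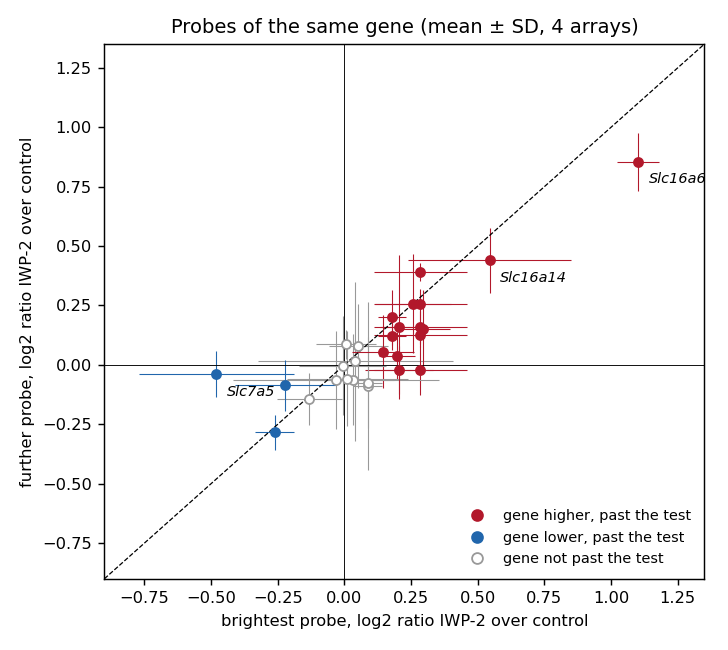
The log2 ratio of IWP-2 over control of each further probe (vertical axis) is plotted against that of the brightest probe of the same gene (horizontal axis), as means of 4 arrays with SD bars and the line of equality. The Slc16a6 and Slc16a14 probes lie near the line at 0.85 and 0.44, and the further probe of Slc7a5 lies near 0 at -0.04.

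Genes around the transport of amino acids were taken from lists. The amino acid response list holds ATF4, the factor that raises transcription when amino acids are short, with genes it is known to act on. Of its 16 genes, 3 were higher (18.8%, beside 18.1% of all genes) and 8 were lower (50%, beside 15.0%), with a median of -0.14. The largest fall was that of Psat1 (-0.95 ± 0.19), an enzyme of serine synthesis, along with Phgdh of the same pathway (-0.45 ± 0.14) and Pycr1, an enzyme of proline synthesis (-0.45 ± 0.20). Higher were Cebpb (0.74 ± 0.15), Trib3 (0.47 ± 0.20) and Ddit3 (0.31 ± 0.13). Pycr1 and Ddit3 are named after their values were seen. Atf4 itself was at -0.09 ± 0.13 (adjusted p = 0.171, limma).

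Of 12 tested genes of glutamine and glutamate metabolism, 3 were higher and 3 were lower (25% each, beside 18.1% and 15.0% of all genes, median -0.05). Glul, which encodes glutamine synthetase, fell on all arrays with ratios of -0.53, -0.49, -0.57 and -0.49 and a mean of -0.52 ± 0.04 (adjusted p = 0.000312, limma). Gpt2, which encodes a mitochondrial alanine aminotransferase, was at -0.64 ± 0.14. Gad2, which encodes an enzyme that makes GABA from glutamate, was higher by 0.63 ± 0.36, with arrays between 0.26 and 1.08, and Ppat was lower by 0.25 ± 0.16.

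In the list of MYC factors with Max, the glucose-sensing factors Mlxip and Mlxipl and their known targets Txnip and Arrdc4, 4 of 8 genes were lower (50%, beside 15.0% of all genes) and 0 were higher (median -0.14). These were Mycl (-0.78 ± 0.20), Myc (-0.51 ± 0.12), Mycn (-0.42 ± 0.21) and Arrdc4 (-0.28 ± 0.02). Of 19 tested genes of amino acid sensing upstream of mTORC1, 5 were higher and 1 was lower (median 0.04), together 31.6% beside 33.1% of all genes. Flcn, the folliculin gene, was at 0.53 ± 0.12, Gatsl2 at 0.37 ± 0.10, Rragd at 0.29 ± 0.27 and Rragc at 0.29 ± 0.06.

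The hexose use list had 4 higher and 3 lower of 14 genes (28.6% and 21.4%, beside 18.1% and 15.0% of all genes, median -0.02). Its hexokinase genes past the test went in opposite directions: Hk3 was at 0.48 ± 0.18 and Hk2 at -0.26 ± 0.04. The phosphofructokinase gene Pfkp was at -0.47 ± 0.26, and Gfpt1, which encodes the first enzyme of the hexosamine pathway, was at 0.24 ± 0.16. Among genes of proteins that escort or regulate transporters, Arl6ip5 was higher at 0.22 ± 0.12, and Laptm4b, which encodes a lysosomal protein that binds the LAT1 complex, was lower at -0.18 ± 0.12. Bsg, the chaperone of MCT1 and MCT4, was at -0.11 ± 0.06 (adjusted p = 0.0802, limma).

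**Figure D5:**
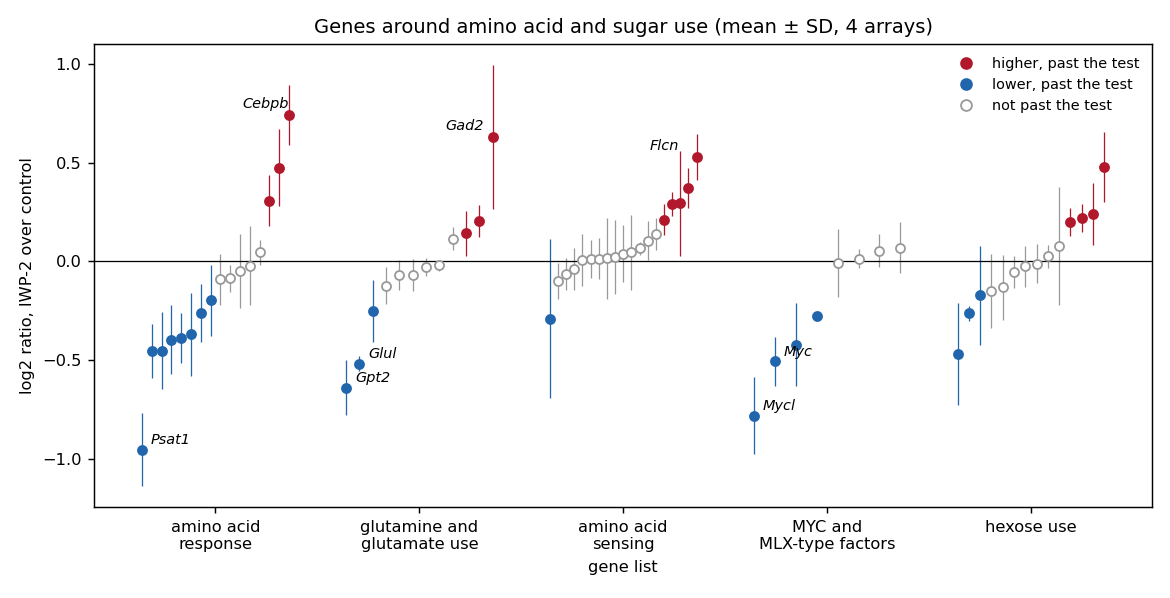
The log2 ratio of IWP-2 over control (vertical axis, mean of 4 arrays with SD bars) is plotted for the tested genes of 5 lists around amino acid and sugar use (horizontal axis), in red and blue where they passed the test as higher and lower and open where they did not. Blue and red points number 8 and 3 in the amino acid response list and 4 and 0 in the list of MYC and MLX-type factors with their targets, where 3 of the 4 blue points are MYC factors. In amino acid sensing 6 of 19 genes passed the test, a share near that of all genes. Of all genes, 15.0% were lower and 18.1% were higher.

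The 250 bases before the annotated start of a gene were available from RefSeq (GRCm38.p6) for 59 of the 83 tested genes, and 3 short motifs were searched on both strands. These were CACGTG, the E-box that MYC and MLX-type factors bind, CTTTGAT, which is bound by TCF/LEF factors of the WNT pathway, and TGATGNAA, the core of the element bound by ATF4 and its partners. CACGTG was found in 4 of 19 genes that were higher, 0 of 11 that were lower and 7 of 29 that did not pass the test. It was found before at least 1 start in 6.86% of all 27025 genes with such a sequence and in 8.84% of the tested ones. CTTTGAT was found in 1, 0 and 4 genes of these groups, beside 3.72% of all genes and 2.97% of the tested ones. TGATGNAA was found in 2, 0 and 0 genes, beside 3.91% and 2.77%. Such matches are descriptions of the letters and say nothing about binding in these explants.

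The upstream sequences of the gene with the largest rise and of that with the largest fall are given for comparison, 5′ to 3′ on the strand of the gene, with the motif in capitals. That of Slc38a5 is chrX:8271131-8271380 on the plus strand and holds CACGTG with its first base 30 bases before the start. That of Slc1a3 is chr15:8710808-8711057 on the minus strand and holds none of the 3 motifs.
Slc38a5: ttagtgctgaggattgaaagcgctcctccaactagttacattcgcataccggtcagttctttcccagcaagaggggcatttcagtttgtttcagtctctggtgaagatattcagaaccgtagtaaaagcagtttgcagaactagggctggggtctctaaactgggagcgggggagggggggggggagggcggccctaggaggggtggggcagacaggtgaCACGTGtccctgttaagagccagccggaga
Slc1a3: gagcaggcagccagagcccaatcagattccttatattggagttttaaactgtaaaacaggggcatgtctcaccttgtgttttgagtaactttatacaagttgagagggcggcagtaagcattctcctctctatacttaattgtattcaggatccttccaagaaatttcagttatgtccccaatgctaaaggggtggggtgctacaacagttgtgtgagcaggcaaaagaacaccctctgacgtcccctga
They contain 55.2% and 44.8% G and C. The upstream sequences of Slc2a9 and the 2 annotated starts of Slc43a2 held none of the motifs either.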

How the data were processed

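RNA of treated and control ureter pools was compared on 4 two-colour arrays. The scanned arrays were read by the authors with Agilent Feature Extraction 10.7.3.1, per the labels. The deposited intensity values are mean spot and median background signals per channel, and the processed intensity is background-subtracted and dye-normalised. The deposited log10 ratio of red over green was used only to check the direction (r of 0.935 to 1.00 per array). The flags for outliers and for spots well above background in the deposited files were used as given. A table for the whole series, also deposited by the authors, gives signed fold changes, a score rounded to 1 decimal whose normalisation is unstated, and was used as an alternative. It is treated over control, with r of 0.984 to 0.991 against the processed signals, and its column medians are 0 on the log2 scale.

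Intensities were corrected with normexp (offset 50) and normalised by loess (span 0.3) within each array (limma 3.58.1, R 4.3.3). Control spots were left out of the loess fit, and outlier spots were dropped after it. The spots of a probe were averaged, and the brightest probe stood for a gene. Log2 ratios were fitted with lmFit and eBayes with a dye term. Two-sided p-values of limma were adjusted by the Benjamini-Hochberg method over 22455 genes, with 0.05 as threshold. Means are given with the SD between arrays, which still holds the dye effect. Channel intensities followed loess and Aquantile normalisation. The offset draws the ratios of dim probes towards 0. The number of arrays limits the precision. All arrays were on 1 slide and in 1 scan. The SD over genes of the contrast of arrays 1 and 2 against 3 and 4 was 0.12, as was that of 1 and 4 against 2 and 3.

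The transporter genes, the gene lists and the rule for naming genes were chosen with earlier results of these data known. The rule took all tested Slc38 genes, both Slc3 genes, in each family the genes past the test with a change of at least 0.5 or else the largest one past the test, genes whose probes disagreed in sign, and up to 4 genes past the test per list. Other transporter genes are named after their values were seen. Names are those of the array design, and probe positions are on mm9. Promoter positions are those of RefSeq on GRCm38.p6, a different build, and were not related to the probes. A planned comparison of protein sequences was not made, and 1 list of partner proteins is not reported here in full. Alternatives in background correction, normalisation, filter, probe choice, dye term, values and arrays were run.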

Additional observations from a re-analysis of the deposited data

Results flagged for a closer look

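In 3 genes past the test, or named, 1 array lay apart from the other 3 by more than Dixon's critical value, of 50 genes examined, and chance flags about 1 in 20 groups, or 2.5 of 50. Slc16a14 was at 1.00 on array 2 and at 0.36 to 0.42 on the others. Slc16a7 was at 0.54 on array 2 and at 0.18 to 0.22 on the others. Slc16a5 was at -0.50 on array 4 and at -0.14 to -0.11 on the others. The direction was the same on 4 of 4 arrays in each.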

How the results depend on the processing

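Slc38a5 kept its direction and stayed past the test under all 15 alternatives, between 1.70 and 1.89, and its difference from the median of its paralogues lay between 1.57 and 1.77. No transporter gene past the test reversed. Of the 43 genes, 13 stayed past the test under every alternative in which they were tested (14 for Slc16a11 and Slc6a4, which the filter on processed signals left out, and 15 for the others) and 30 were lost under at least 1. Of the 40 others, 11 passed under some. The counts moved by over 1.5 times with the series table of fold changes, whose values are coarse: 12 transporter genes were higher and 7 lower, and 1833 and 2050 of all genes. There the split of all calls thus turned towards lower genes, from 4068 higher and 3360 lower. Of the 43 genes, 28 were then not past the test, at adjusted p of 0.0568 to 0.406 (limma). Among them were Slc38a8 and Slc16a14, whose changes there were 0.57 and 0.60. Leaving out each array in turn gave 18 to 24 higher and 11 to 15 lower transporter genes, and 2878 to 3345 higher and 2180 to 2813 lower of all genes. The counts of higher transporter genes and of lower genes moved by over 1.5 times without array 3, to 18 and 2180. With arrays 1 and 2 averaged and arrays 3 and 4 averaged, 30 were higher and 16 lower. The cause of these differences was not tested. Treated and control RNA of a number share an array, so that each ratio is already within a pair. A fit of the 8 channels as separate samples, with the correlation between the channels of a spot estimated, gave 30 higher and 18 lower transporter genes. Changes of dim genes, such as Slc5a12, Slc38a8 and Slc6a4, are limited by signal over background, and 14 genes were not measured.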
